A study of Drosophila melanogaster with 8 samples.

Results

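The genes described here are the ecdysone receptor genes and early response genes of Drosophila melanogaster, the fly's own steroid hormone pathway, as read in S2 cells that carried a steroid-controlled clock protein. The 10 genes EcR, usp, Eip74EF, Eip75B, br, Hr39, ftz-f1, Eip78C, Eip55E and E23 were taken by the gene symbol of the platform annotation, with Eip55E found under its current RefSeq symbol Cth. Probe sets were found for 8 of the 10 genes, 12 of 14010 probe sets on the older array type (Drosophila Genome 1) and 16 of 18952 on the newer (Drosophila 2.0). Eip74EF and Eip75B were not analysed here. S2 is an embryonic cell line with traits of haemocytes, the fly's blood cells. The cells of all 8 arrays expressed CLKGR, the clock activator CLK fused to the hormone-binding part of the vertebrate glucocorticoid receptor, and all were given cycloheximide (CHX), which blocks translation. The older type was hybridised with 2 DEX samples (dexamethasone with CHX) and 2 EtOH samples (ethanol with CHX), and the newer type with 2 samples labelled DEX with CHX and 2 labelled V with CHX. V is unexplained in the labels and served as the control of its own table. The sources used here do not give the promoter of CLKGR or the number of clones. No array was labelled as treated with ecdysone, so the response of these cells to that hormone was not measured.

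Ecdysone and its active form 20-hydroxyecdysone time moulting and metamorphosis. EcR, a nuclear receptor, binds the hormone as a heterodimer with usp, the fly relative of vertebrate RXR, and the pair switches on early genes directly, without new protein synthesis. Many early genes, such as br, themselves encode transcription factors, which then drive later genes. Dexamethasone is a synthetic vertebrate glucocorticoid, used here to release the fusion protein. With CHX present, the comparison asks whether the transcripts of the fly's own steroid pathway differ with dexamethasone without the synthesis of new protein. All the cells carried CLKGR, so an effect of the steroid itself and one of the released fusion protein cannot be told apart.

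The labels could be checked on clock genes, the known targets of CLK. Of 7 tested probe sets of vri, Pdp1, cwo and tim, limma called 5 higher with DEX on the older type. All 6 of the newer type were lower on the arrays labelled DEX, with 0 called and 5 at an unadjusted p under 0.05. The transcript of vri, a bZIP repressor, differed by 4.04 ± 0.26 (SE, log2) on the older type and by -2.07 ± 0.16 on the newer. The 5 calls of the older type are not stable: 0 of the 7 probe sets were called with median centring, repeated quantile normalisation or a floor, or without either EtOH array, while the median difference of the tested ones stayed between 2.26 and 2.90 in every setting run. The direction on the newer type goes against that on the older, and its arrays are called "labelled DEX" and "labelled V" throughout. Whether the labels of its 2 groups were exchanged was not tested, and if they were, the sign of every newer-type difference given here would turn. Of 8 haemocyte markers, 7 were read on the older type and 8 on the newer, and their summed level by the brightest probe set of each gene was 14.92 to 15.35 and 16.43 to 16.71 (log2) over the arrays. The mean levels of the single markers ran from 4.52 (NimC1) to 13.85 (Pxn) on the older type and from 3.95 (Ppn, not tested) to 15.74 (Pxn) on the newer. Markers of neurons, muscle, fat body and germline, again by their brightest probe sets, ranged from 3.34 to 5.93 (older type) and from 3.75 to 6.21 (newer type). The largest haemocyte differences were 1.09 ± 0.33 for He and -0.57 ± 0.50 for a second Pxn probe set on the newer type and -0.66 ± 0.21 for Col4a1 on the older (adjusted p = 0.865, 0.865 and 0.669). None of these cell type markers was called on either type. At an unadjusted p under 0.05 lay 2 of 8 tested haemocyte probe sets on the older type, and 1 of 8 and 1 germline probe set on the newer. Over all tested probe sets these counts were 600 of 10250 and 439 of 12436. Array medians ran from 4.76 to 4.85 (older type) and from 4.43 to 4.48 (newer type) in log2 units, and the most common log2 value was 4.36 in the older table and 3.78 in the newer.

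None of the tested probe sets of the receptor and early genes passed the test between DEX and control. A probe set was tested where its mean log2 value over the 4 arrays of its table was at least 4, which 8 of 12 member probe sets passed on the older type and 15 of 16 on the newer, covering 7 genes on each. limma called 0 of these 8 (older type), beside 0.263% of all 10250 probe sets tested, and 0 of these 15 (newer type), beside 0% of all 12436. At an unadjusted p under 0.05 there were 0 members on either type, beside 600 and 439 of all tested probe sets. The smallest adjusted p of a member was 1.00 and 0.865 in that order. On the older type 4 differences were positive and 4 negative, between -0.05 and 0.15, with a median of -0.0068, beside a median of -0.014 over all tested probe sets. On the newer, positive differences numbered 7 and negative ones 8, between -0.64 and 0.30, with a median of -0.0028, beside -0.0045 over all. The DEX and EtOH arrays did not overlap in 0 of the 8 probe sets on the older type, where this held for 26.6% of all tested. Arrays labelled DEX and V did not overlap in 7 of the 15 (46.7%) on the newer type, where this held for 36.9% of all tested. A p that misses the threshold does not show equal levels, so 95% intervals of the differences are given for the main probe sets. The neuron, muscle, fat body and germline markers reached mean levels of 5.93 (older type) and 6.21 (newer type). All tested sets of EcR, br and E23, and of Hr39 on the older type, lay under these, while usp, ftz-f1 and Eip55E lay above. On the newer type the Hr39 set 1628556_s_at lay above, at 7.82. The other Hr39 sets of that type lay under the top marker (6.213), the highest of them barely, at 6.207. A flat value at so low a level does not show an expressed gene left unchanged. The base with which the values were taken off the GCRMA log scale is not stated, and with base e each log2 difference, error and bound would be multiplied by 0.693. The highest deposited intensity of an array ran from 1.87e+06 to 2.13e+06 (older type) and from 4.82e+06 to 5.13e+06 (newer type). Which base was used was not tested.

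**Figure D1:**
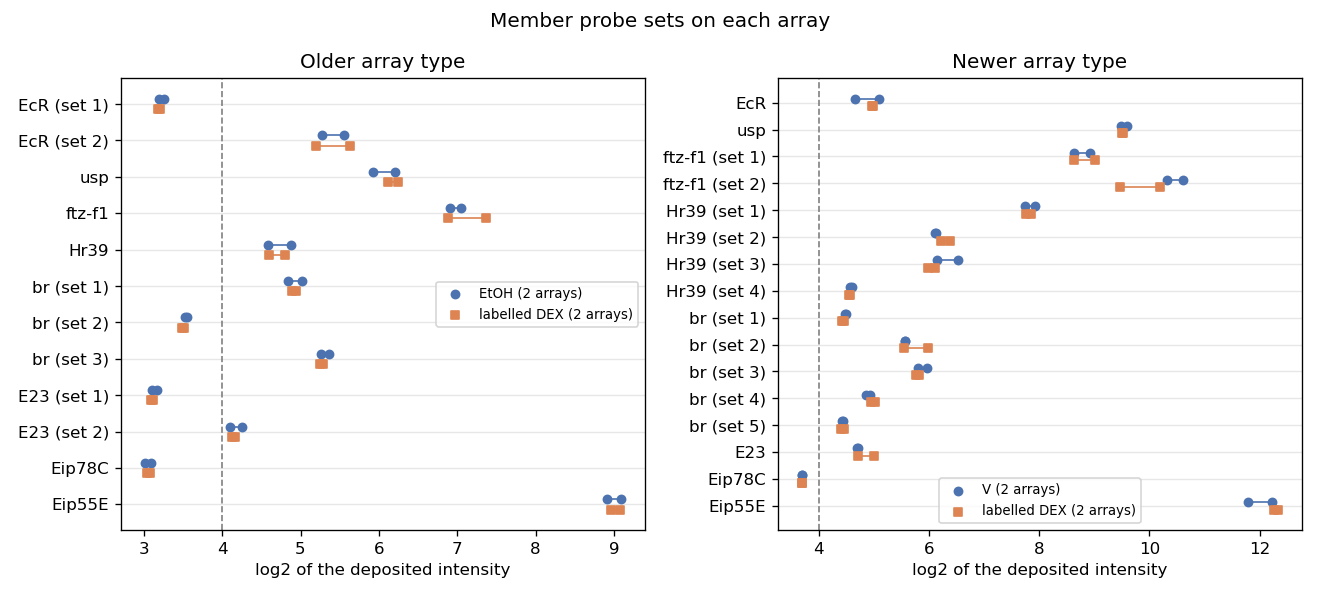
Log2 of the deposited intensity (x axis) of every member probe set on each array, with the older type at left (EtOH circles, DEX squares) and the newer at right (V circles, labelled DEX squares); lines join the 2 arrays of a group and the dashed line is the minimum of 4 for a test. Values run from near 3 to about 12, and most pairs of groups lie on top of each other.

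The receptor genes had levels that overlapped between DEX and control on both array types. EcR, the hormone-binding partner, stood at log2 values of 5.55 and 5.27 on the EtOH arrays and 5.20 and 5.63 on the DEX arrays of the older type, on probe set 154377_at. The DEX arrays were the lowest and the highest of the 4, and the groups overlapped. The difference of DEX minus EtOH was 0.0026 ± 0.18 (SE, log2), with a 95% interval from -0.44 to 0.44, or 0.738 to 1.36 as a ratio on the deposited scale (limma adjusted p = 1.00). A second EcR probe set of this type, 146672_at, lay under the minimum, at 3.18 to 3.26, and was not tested. On arrays of the newer type EcR stood at 4.67 and 5.09 on the arrays labelled V and 4.97 and 4.98 on those labelled DEX, on an _s_at probe set that can read more than 1 transcript or gene. Both arrays labelled DEX lay between those labelled V, and the difference was 0.10 ± 0.17, with an interval from -0.43 to 0.62 (adjusted p = 0.909).

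The heterodimer partner usp stood at 5.92 and 6.21 with EtOH and 6.24 and 6.12 with DEX on the older type. The lowest array was EtOH and the highest DEX, with the others between, and the difference was 0.12 ± 0.15, with an interval from -0.25 to 0.49. The newer type read usp at 9.49 and 9.59 on arrays labelled V and 9.50 and 9.51 on those labelled DEX, all 4 within about 0.1 of each other. The difference of -0.03 ± 0.10 had an interval from -0.34 to 0.28, a ratio of 0.792 to 1.21 (adjusted p = 0.946).

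ftz-f1 gave the largest difference among the members on either type, and it did not pass. Its product, a nuclear receptor related to vertebrate SF-1 and LRH-1, gives tissues the competence to respond to a later pulse of ecdysone. The probe set 1640821_at of the newer type stood at 10.32 and 10.60 on arrays labelled V and 10.195 and 9.46 on those labelled DEX. Both arrays labelled DEX lay lower, the second by far, with an SD of 0.52 in that group against 0.20 with V. The difference was -0.64 ± 0.32, with an interval from -1.63 to 0.36 (adjusted p = 0.865). It was -0.27 without DEX replicate 2 and -1.0 without DEX replicate 1 of this type, so its size rests on 1 array. The other ftz-f1 probe set of the newer type, 1624520_a_at, did not show it, with 8.91 and 8.63 on arrays labelled V and 9.02 and 8.64 on those labelled DEX, a difference of 0.05 ± 0.21. On the older type ftz-f1 stood at 6.91 and 7.05 with EtOH and 7.37 and 6.88 with DEX, where the DEX arrays were again the highest and the lowest, and the difference was 0.15 ± 0.20, with an interval from -0.36 to 0.65.

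Hr39, a nuclear receptor of the same family as ftz-f1 that is induced early by ecdysone, was read by 1 probe set on the older type and 4 on the newer. On the older type it stood at 4.58 and 4.88 with EtOH and 4.60 and 4.80 with DEX, and both DEX arrays lay between the EtOH arrays (difference -0.03 ± 0.13, interval -0.34 to 0.28). Of the newer type's probe sets all but 1632845_at end in _s_at and are uncertain. The brightest, 1628556_s_at, stood at 7.74 and 7.93 on arrays labelled V and 7.76 and 7.85 on those labelled DEX, a difference of -0.02 ± 0.13 with overlapping groups. The other _s_at sets had groups that did not overlap and opposite signs, 0.19 ± 0.11 on 1630002_s_at and -0.29 ± 0.19 on 1631402_s_at, neither called (adjusted p = 0.865 each). With 1 array left out they ran from 0.10 to 0.27 and from -0.49 to -0.096. The set 1632845_at differed by -0.03 ± 0.03 at a level near 4.6. The 4 probe sets of Hr39 therefore disagree on the sign of the difference. Eip78C, for a further ecdysone-induced nuclear receptor, lay under the minimum on both types, at 3.01 to 3.09 (older) and 3.69 to 3.71 (newer), and was not tested.

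br, the Broad-Complex, encodes BTB zinc-finger transcription factors that mark the start of metamorphosis. Its tested probe sets, 2 of 3 on the older and 5 of 5 on the newer type, had mean levels between 4.43 and 5.84. These levels lay inside the range of the neuron, muscle, fat body and germline markers. On the older type 144385_at stood at 5.26 and 5.36 with EtOH and 5.25 and 5.28 with DEX, with overlap, and differed by -0.05 ± 0.10. The other tested set differed by -0.02 ± 0.10. The brightest set of the newer type, 1635691_at, stood at 5.81 and 5.97 on arrays labelled V and 5.83 and 5.77 on those labelled DEX, a difference of -0.09 ± 0.10 with an interval from -0.40 to 0.23. The largest br difference, 0.20 ± 0.18 on 1629683_at, came from 1 array labelled DEX at 5.98, while the other lay at 5.56 and those labelled V at 5.57 and 5.58. The remaining 3 sets of this type differed by -0.04, 0.09 and -0.0028. Of the 5 sets, 2 had groups that did not overlap, 1 of each sign, where this held for 36.9% of all tested probe sets.

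E23, an early gene, encodes an ABC transporter that dampens the ecdysone response in flies. On the older type its tested probe set stood at 4.10 and 4.25 with EtOH and 4.12 and 4.17 with DEX, just inside the minimum, and the other lay at 3.10 to 3.17, under it. The difference was -0.03 ± 0.07, with an interval from -0.20 to 0.14. Arrays labelled V stood at 4.711 and 4.703 on the newer type and those labelled DEX at 4.706 and 4.998, so that 1 array labelled DEX was higher and the other lay between the controls. The difference was 0.15 ± 0.12 (adjusted p = 0.865).

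Eip55E encodes the enzyme cystathionine gamma-lyase and was first known as a protein that ecdysone induces in cultured fly cells. It stood at 9.09 and 8.91 with EtOH and 9.08 and 8.96 with DEX on the older type, where both DEX arrays lay between the EtOH arrays. The difference was 0.01 ± 0.18, with an interval from -0.43 to 0.46, a ratio of 0.740 to 1.38. The newer type gave 12.22 and 11.78 on arrays labelled V and 12.27 and 12.33 on those labelled DEX. Both arrays labelled DEX were higher, the lower of them by about 0.05 above V replicate 1. The difference was 0.30 ± 0.19, with an interval from -0.28 to 0.88 (adjusted p = 0.865). It was 0.083 without V replicate 2 and 0.52 without V replicate 1.

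**Figure D2:**
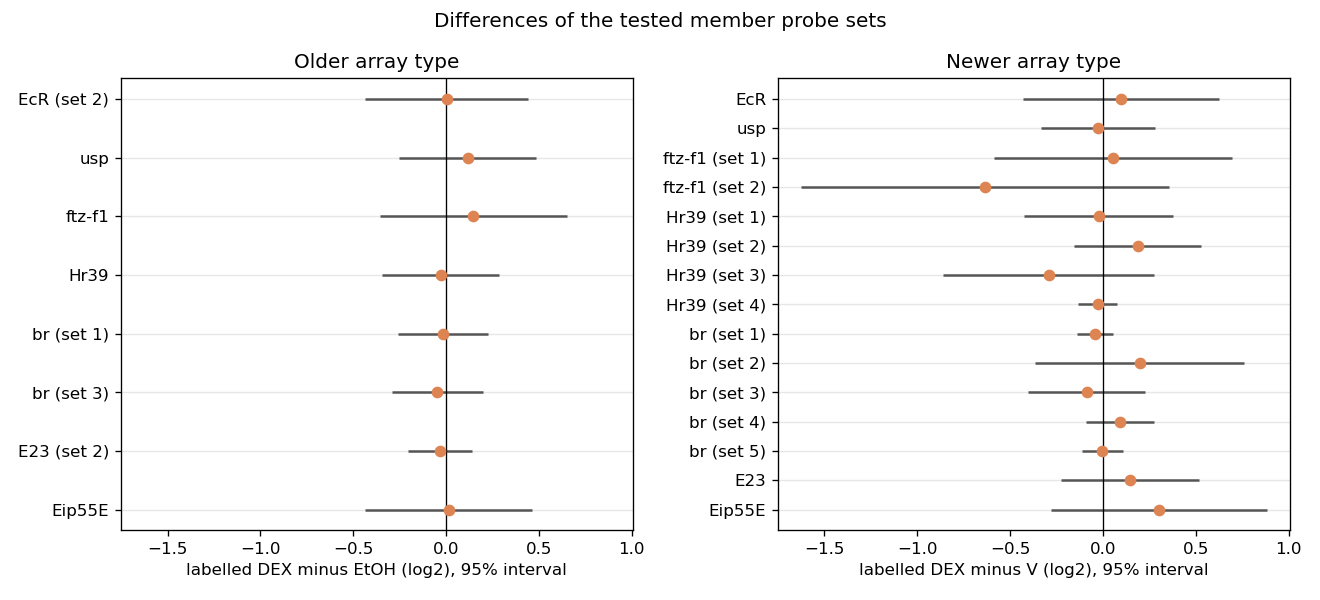
Difference in log2 intensity between arrays labelled DEX and control (x axis; points) with its 95% interval from limma (lines) for the 8 tested member probe sets of the older type, at left, and the 15 of the newer, at right. Every interval spans 0, and the largest differences are those of ftz-f1 set 2 (-0.64), Eip55E (0.30) and Hr39 set 3 (-0.29) on the newer type.

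The effects on the 2 array types were also set against each other, since the clock genes moved in opposite directions on them. With 1 probe set per gene and type, limma called 0 of 7 member genes for a difference between effects, where it called 0.297% of 8404 genes. At an unadjusted p under 0.05 lay 0 of the 7, beside 401 of the 8404. The difference, newer minus older, was -0.78 ± 0.40 (SE) for ftz-f1, 0.28 ± 0.26 for Eip55E, 0.18 ± 0.15 for E23, -0.15 ± 0.22 for usp, 0.09 ± 0.28 for EcR, -0.04 ± 0.16 for br and 0.0059 ± 0.23 for Hr39 (adjusted p = 1.00 each). With 1 array left out these ran from -1.15 to -0.41 for ftz-f1, from 0.068 to 0.50 for Eip55E, from 0.031 to 0.32 for E23 and from -0.29 to -0.0067 for usp. The effects of 3 of the 7 had opposite signs on the types. With the sign of the newer type turned, 4 of the 7 had. limma then called 0 of all 8404 genes, so the count of 0 among the 7 was fixed. The turned difference was 0.49 ± 0.40 for ftz-f1 and -0.31 ± 0.26 for Eip55E (adjusted p = 0.909 each). In the fit as labelled the clock genes vri, cwo and Pdp1 passed, with adjusted p of 0.0011, 0.0398 and 0.0020, and tim did not (0.372).

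Other genes of the ecdysone pathway did not pass either. Of 23 further ecdysone-responsive genes, 18 were read on each type, and limma called 0 of 17 tested probe sets (older type) and 0 of 18 (newer type), with 0 and 1 at an unadjusted p under 0.05. The median difference was -0.03 and 0.01. The largest were ImpL2, a secreted insulin-binding protein gene, at -0.63 ± 0.28 on the newer type (uncertain, _s_at), MsrA, a methionine sulfoxide reductase gene also called Eip71CD, at 0.53 ± 0.28 on the older, and the small heat shock gene Hsp27 at 0.41 ± 0.38 on the newer (adjusted p = 0.865, 1.00 and 0.865). On the other array type ImpL2 differed by 0.25, MsrA by 0.08 and Hsp27 by -0.29.

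Among receptor cofactors and chaperones, limma called 0 of 16 tested probe sets (older type) and 0 of 12 (newer type), with medians of 0.01 and -0.02. At an unadjusted p under 0.05 there were 3 and 1, beside 600 of 10250 and 439 of 12436 of all tested probe sets. The coactivator gene nej, the fly CBP, stood at 8.63 and 8.10 on arrays labelled V and 7.67 and 7.58 on those labelled DEX, a difference of -0.74 ± 0.23 (adjusted p = 0.865). tai, for a coactivator of EcR, differed by -0.54 ± 0.23 on 1 probe set of the older type (adjusted p = 0.873), and bon, for a cofactor of nuclear receptors of the TIF1 type, by 0.59 ± 0.24 on the newer (0.865). In each of these 3 the groups did not overlap. That held for 8 of the 16 tested probe sets (older type) and 4 of the 12 (newer type), beside 26.6% and 36.9% of all tested. Other probe sets of the same 3 genes gave other values: -0.06 for nej on the newer type and -0.18 and -0.03 on the older, -0.02 for tai on the older and 0.10 on the newer, and 0.21 and -0.55 for bon on the older. Genes of ecdysone synthesis, uptake and breakdown had 0 called of 5 tested probe sets on each type, 0 at an unadjusted p under 0.05, and medians of -0.03 and -0.01. The largest difference there was 0.35 ± 0.34 for the hydroxylase gene shd, which makes the active hormone, followed by -0.22 ± 0.14 for spo (uncertain, _s_at) and -0.10 ± 0.12 for sad, both for enzymes of ecdysone synthesis, all on the newer type and all at group means from 4.15 to 4.63. The other nuclear receptor genes had 0 called of 8 and of 9, 0 at an unadjusted p under 0.05, and a median of -0.02 on each type. Hnf4, a regulator of lipid metabolism, differed by 0.42 ± 0.18 (0.29 ± 0.22 on the older type), kni by -0.45 ± 0.35 and svp by -0.24 ± 0.20 (uncertain, _s_at), all on the newer type (adjusted p = 0.865 each). The last 2 rest on 1 array labelled V. kni stood at 4.25 and 5.14 on arrays labelled V and 4.24 on both labelled DEX, and svp at 5.28 and 4.79 against 4.79 and 4.80. The other tested svp sets of the newer type differed by -0.02 each, as did kni on the older type.

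**Figure D3:**
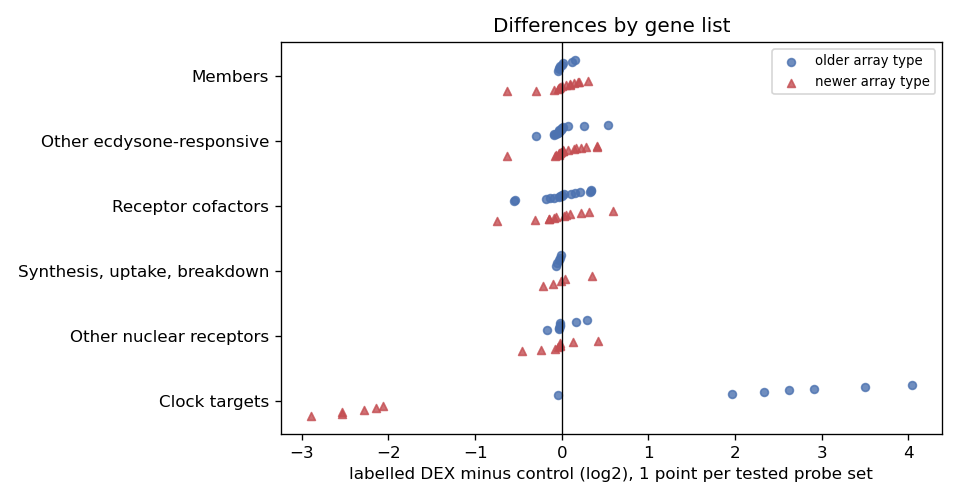
Difference in log2 intensity between arrays labelled DEX and control (x axis) for every tested probe set (1 point each) of the members, of the other ecdysone pathway lists and of 4 clock genes, with circles for the older and triangles for the newer array type. Member differences lie between -0.64 and 0.30, while all but 1 of the clock probe sets lie at or beyond 1.96 (older type) or -2.07 (newer type).

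The genes whose profile lay nearest to that of ftz-f1, the member with the largest difference, were pico, Spc105R and CG44774, at Euclidean distances of 0.399, 0.413 and 0.427 over the 8 log2 values centred within each table. The median distance of all 8403 other genes was 1.01, and the length of the ftz-f1 profile itself was 0.929. All 8 values come from the same arrays. pico shared with ftz-f1 a high value on DEX replicate 1 of the older type (0.50 above its mean) and a low value on the array labelled DEX replicate 2 of the newer (a deviation of -0.76). This likeness is a description of these arrays.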

How the data were processed

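Total RNA was labelled with biotin and read on Affymetrix arrays. The deposited intensity values, 1 table per array type, were made by the authors with GCRMA (background correction, quantile normalisation, probe summary), per the submitters' processing notes; its version and the base used to leave the log scale are not given in the sources used here. Values were log2-transformed without a pseudocount. Control probe sets (44 older, 183 newer) were left out and probe sets with a mean log2 value of at least 4 tested. Each table was fitted alone, since the tables were normalised separately, with limma 3.58.1 in R 4.3.3 (lmFit, eBayes with an intensity trend; 2 residual degrees of freedom), two-sided, Benjamini-Hochberg adjustment over all tested probe sets, threshold 0.05. The difference between types was tested on all 8 arrays by a contrast, newer minus older, with each gene's brightest probe set. The fits were tested on simulated data.

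Probe sets with 1 gene symbol (12444 older, 13647 newer) were named through the platform annotation and RefSeq gene IDs (12394 and 13544 matched); Eip55E is Cth there. Named genes were all members, and from each list the called genes or else up to 3 with the largest difference; NimC1 and Ppn were named after their values were seen, and neuron, muscle, fat body and germline markers are given as ranges. The members and lists were chosen with earlier results of these data known. Separate cultures are not stated in the labels, so the spread behind each p-value may be technical; 2 arrays per group limit the precision.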

Additional observations from a re-analysis of the deposited data

How the results depend on the processing

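The count of members called was 0 in all 13 alternatives on the older type (smallest adjusted p 0.646), all 13 on the newer (0.298) and all 15 for the difference between types (0.405). All had median centring, repeated quantile normalisation, no minimum, no trend, a replicate block and each array left out; the counts within a type also had a minimum of 5, a floor, a pseudocount and the variance of all 8 arrays, and the difference had plain _at probe sets and the newer type turned. The count over all probe sets or genes went from 27 to between 0 (median centring, or without either EtOH array) and 455 (without DEX replicate 2) on the older type, from 0 to between 0 and 14 on the newer, and from 25 to between 0 (newer type turned) and 94 for the difference. Where limma called 0 of all probe sets or genes, no member could be called, so the result for the members was fixed. On the newer type this held in the main fit and in every alternative except the floor and the variance of all 8 arrays. The members of that type were therefore open to a call only in these exceptions. On the older type the result was fixed with median centring and without either EtOH array, and for the difference with the newer type turned. Some uncalled differences near 0 changed sign. With median centring br became 0.0081 (141430_at) and 0.018 (1637312_a_at); with repeated quantile normalisation 0.0093 and 0.015, Eip55E on the older type -0.063 and the Hr39 difference between types -0.049. With 1 array left out, 18 of 30 values changed sign at least once. The ranges on the older type were br -0.11 to 0.073 and -0.097 to 0.0043, E23 -0.10 to 0.040, usp -0.022 to 0.26, Eip55E -0.075 to 0.10, EcR -0.21 to 0.22, ftz-f1 -0.097 to 0.39 and Hr39 -0.18 to 0.12. On the newer type they were usp -0.079 to 0.021, ftz-f1 (1624520_a_at) -0.13 to 0.24, E23 -3.6e-04 to 0.29, Hr39 -0.12 to 0.072, br -0.015 to 0.41 and -0.031 to 0.025, and EcR -0.11 to 0.31. For the difference between types they were br -0.12 to 0.038, EcR -0.12 to 0.31 and Hr39 -0.14 to 0.15. Without a change of sign, br ran from -0.17 to -0.0078 (1635691_at), 0.051 to 0.13 (1636931_at) and -0.056 to -0.029 (1626996_s_at), and Hr39 from -0.045 to -0.014 (1632845_at). The causes were not tested. The replicate block was chosen after seeing the data, as was the turned sign. The block takes the control array with no number in its label as number 1 and leaves 1 residual degree of freedom per type. With the replicate block limma called 0 members in each comparison, and 34 probe sets (older), 0 (newer) and 6 genes (difference) in all; arrays of the same number correlated in their deviations at 0.26 (older) and -0.023 (newer), so the numbers are not taken as pairs.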
